A study of Homo sapiens with 5 samples.

Results

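Acute hypoxia was described by 1 pair of RNA sequencing libraries from MDA-MB-231 cells: cells kept at 1% O2 for 1 day, and cells kept at 20% O2 for 1 day. MDA-MB-231 is an established human triple-negative breast cancer line. Every gene was taken that reached at least 5 CPM (read counts scaled to a common library size with TMM factors) in either of these libraries in the authors' normalized table, which gave 10918 of 26475 rows. ADAP2, at 5.08 CPM, lay just inside that level and ADAMTSL5, at 4.99 CPM, just outside it. The level was reached only at 1% O2 by 198 genes and only at 20% O2 by 131, and such genes had to differ between the libraries. The series holds 3 more libraries of the same line, 1 each from cells at 20% O2 for 10 days, cells at 1% O2 for 10 days, and cells that were reoxygenated at 20% O2 for 10 days after 10 days at 1% O2. No drug, transfection or genetic change is named in the labels for any group, and each group is 1 library of 1 line. With 1 library a side there was no replicate and no test. Each log2 difference is 1% O2 minus 20% O2 at day 1 and is followed in brackets by the exact 95% interval of its count ratio, which covers counting error only and compares these libraries, not the conditions.

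Cells sense oxygen through prolyl hydroxylases of the EGLN family, which need oxygen to mark the alpha subunits of the hypoxia-inducible factors (HIF) for destruction by the VHL ubiquitin ligase. When oxygen is scarce the alpha subunits persist, pair with ARNT and bind DNA at short elements with the core letters ACGTG or GCGTG near their target genes. The targets are known for moving metabolism from respiration to glycolysis, for supplying vessels and matrix enzymes, and for feeding back on the pathway through EGLN1 and EGLN3.

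The 4 genes given with this label as marks of the hypoxic response are described first. Their values come from the same libraries, so they are not an independent check. CA9, a carbonic anhydrase at the cell surface that helps tumour cells export acid, had 53 reads at 20% O2 and 560 at 1% O2. NDRG1, a stress-responsive gene, had 668 and 6003 reads, ALDOC, an aldolase of glycolysis, had 276 and 1262, and PFKFB4, which sets the level of a glycolytic activator, had 123 and 437. All 4 were higher at 1% O2 by more than 3-fold. The libraries held 10764207 reads at 20% O2 and 11189152 at 1% O2, with the same TMM factor of 0.965, and the absence of a read allows up to 3 counts, or 0.289 and 0.278 CPM. The mesenchymal markers VIM, CD44 and AXL stood at 2198, 857 and 1061 CPM at 20% O2, while the luminal genes ESR1, PGR, FOXA1 and CDH1 were below the level in both libraries. Of these lists, 13 of 17 mesenchymal genes and 8 of 14 epithelial and luminal genes reached the level, so the genes named do not stand for either list. The mesenchymal genes CDH2, SNAI1, TWIST1 and TWIST2 were also below the level. The mesenchymal sum was 4666.8 CPM at 20% O2 and 4628.4 CPM at 1% O2, and the epithelial and luminal sum 1073.8 and 977.7 CPM. Fibroblast, endothelial, blood and liver markers numbered 19, of which 3 reached the level (COL1A1, KDR and CD68). Their sum over all 19 was 169 CPM at 20% O2 and 170.3 CPM at 1% O2, and COL1A2, HBB, CD3E and ALB had no reads in either. In bulk RNA, fewer cells with a transcript and less of it per cell cannot be told apart.

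After 1 day at 1% O2 most genes stood close to their level at 20% O2, and a small group stood apart, mostly upward. The median difference over the 10918 genes was -0.006 on the log2 scale, with quartiles at -0.14 and 0.14, and 74.0% of genes lay within 0.25 of 0. A difference of at least 2-fold was found upward for 65 genes (0.595%) and downward for 13 (0.119%), and 11 of the 65 were at least 4-fold higher. With a looser rule of at least 1.5-fold and an interval that excludes 0, 275 genes (2.52%) were higher and 98 (0.898%) lower. Of the genes 2-fold higher, 22 reached the level at 1% O2 only, and of those 2-fold lower, 8 reached it at 20% O2 only. Rows that share sequence with another row can trade reads in the authors' estimates. Rows with a joined or small RNA name, with at least 50% of sampled 31-base words in another row, or closest to a joined row, made up 7 of the 65 and 7 of the 13, which leaves 58 and 6. The 58 include FAM231D, LOC101927181, LOC154761 and LOC727751, which had no value for shared words and so were not checked for them.

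**Figure D1:**
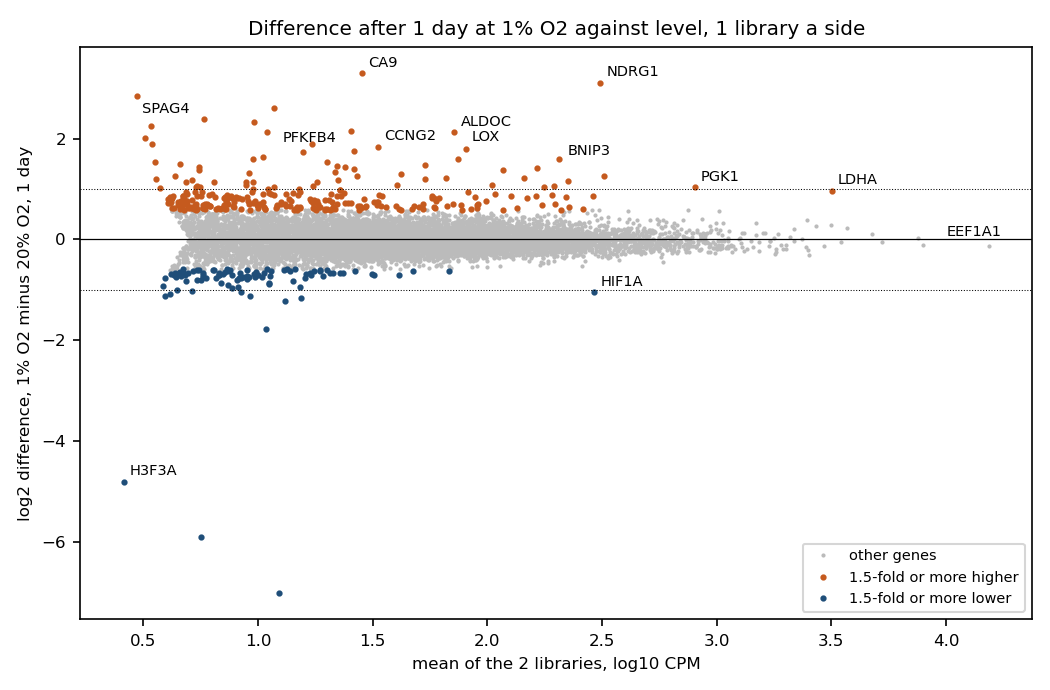
Log2 difference at day 1 (vertical) against the mean CPM of both day 1 libraries on a log10 scale (horizontal), 1 point a gene, with dotted lines at 2-fold. Of 10918 genes, 275 lie at least 1.5-fold higher (orange) and 98 at least 1.5-fold lower (blue) with an interval that excludes 0, and CA9 and NDRG1 stand at the top; the 3 lowest points have no reads at 1% O2, so their position depends on the prior count of 2.

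Genes of acid export, glycolysis, matrix crosslinking, mitochondrial turnover and growth restraint were among those at least 2-fold higher, beside genes of other kinds. The rows at least 4-fold higher also included joined, near-copy and uncharacterized rows, such as LOC727751 with 33 and 219 reads (2.60 [2.14, 3.25]). CA9 was at 5.10 CPM at 20% O2 and 51.9 CPM at 1% O2, a 9.83-fold difference (3.30 [2.94, 3.78]). It was at 8.48 CPM after 10 days at 20% O2, 68.7 CPM after 10 days at 1% O2 and 3.65 CPM in the reoxygenated library, so both 1% O2 libraries stood above the other 3. NDRG1 was at 64.3 and 556 CPM on day 1 (3.11 [3.00, 3.23]). Its other levels were 82.7 CPM at 20% O2 and 3876 CPM at 1% O2 after 10 days, and 63.4 CPM after reoxygenation, so the day 1 value lay far from both extremes. TCAF2, a regulator of a cold-sensing ion channel, had 32 reads at 20% O2 and 175 at 1% O2 (2.33 [1.85, 2.99]), and 37.1% of its words are shared with TCAF2P1. SPAG4, a nuclear envelope protein, had 11 and 62 reads (2.25 [1.5, 3.51]), and its wide interval reflects those few reads.

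ANGPTL4, a secreted inhibitor of lipoprotein lipase, was at 3.95 and 18.0 CPM on day 1 (2.13 [1.69, 2.71]), against 5.55 and 130.4 CPM on day 10. ALDOC was at 26.6 and 117 CPM (2.13 [1.95, 2.33]), against 40.5 and 159.9 CPM on day 10. ALDOC therefore stood on day 1 near its later difference of 1.98, while ANGPTL4, at 4.51 on day 10, did not. RIMKLA, a ligase that makes the neuropeptide NAAG, was at 7.22 and 27.3 CPM (1.89 [1.55, 2.31]). CCNG2, an unconventional cyclin linked to cell cycle arrest, was at 14.4 and 52.1 CPM (1.84 [1.59, 2.12]). LOX, which crosslinks collagen, was at 36.1 and 125 CPM (1.79 [1.63, 1.96]), and its 3 libraries harvested at 20% O2 lay between 32.9 and 38.7 CPM. PPFIA4, a liprin scaffold protein, was at 5.01 and 16.0 CPM (1.64 [1.22, 2.15]). RORA, a nuclear receptor of the clock, was at 10.1 and 29.8 CPM (1.54 [1.24, 1.89]), and the reoxygenated library, at 25.1 CPM, came close to the latter. SPTB, a spectrin, had 18 and 58 reads (1.53 [0.85, 2.48]), but its level after 10 days at 20% O2, 6.20 CPM, was above its 5.37 CPM at 1% O2 on day 1. FAM231D had 24 and 74 reads (1.49 [0.89, 2.30]).

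Some of the highest rows were uncertain. FAM225B had 18 and 107 reads (2.39 [1.79, 3.32]) while its near-copy FAM225A had 132 and 62 (-1.12 [-1.61, -0.70]), and 75.8% of the words of FAM225B and 90.8% of those of FAM225A are shared between them. HNRNPH2, an RNA-binding protein, had 95 and 449 reads (2.16 [1.86, 2.52]), but its closest row is the joined row RPL36A-HNRNPH2 and its level ran from 9.15 to 51.7 CPM across the libraries with the reoxygenated one highest.

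**Figure D2:**
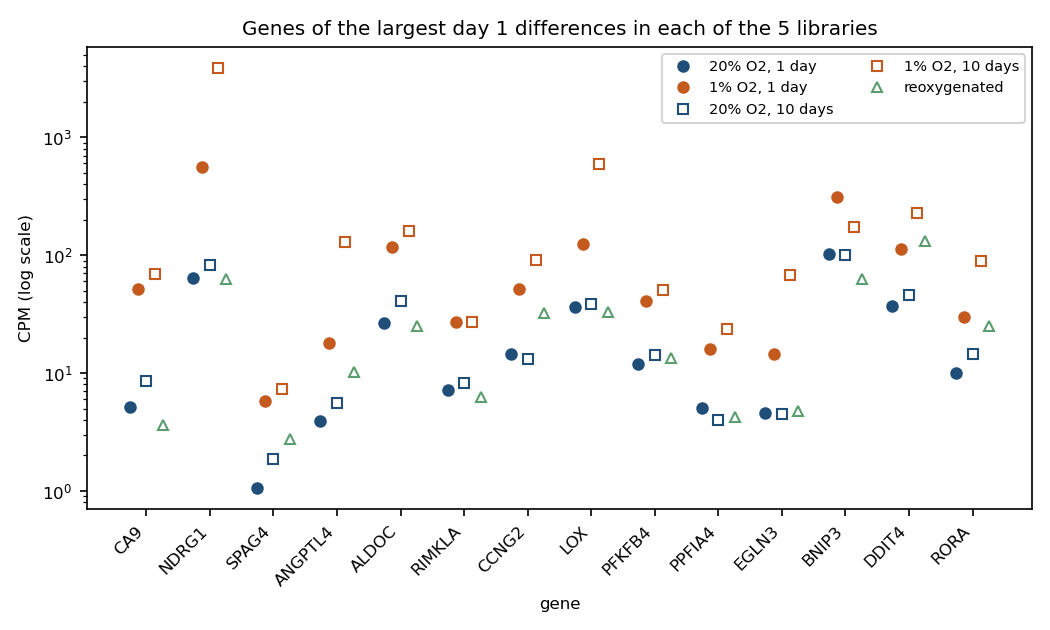
CPM on a log scale of 14 genes with large day 1 differences, 1 point for each of the 5 libraries. Filled circles are the day 1 pair, open squares the day 10 pair and triangles the reoxygenated library; CA9 stands at 5.10 and 51.9 CPM on day 1 and DDIT4 is an exception whose reoxygenated library (132 CPM) lies above its 1% O2 level at day 1 (112 CPM).

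The letters ACGTG were looked for on both strands of the RefSeq promoter windows (build GRCh38.p14, 250 bases before to 50 after each gene's start). Of the 65 genes 2-fold higher, 51 had a window, and 26 of these had the letters in at least 1 window. The share by gene over all genes is not given here, so this count cannot be set against the shares by window below. By window, the share was 39.7% of 73 windows for genes 2-fold higher (exact 95% interval 28.5% to 51.9%), 32.6% of 331 windows for genes 1.5-fold higher and 25% of 116 windows for genes 1.5-fold lower. The share was 26.1% of 13195 windows for all genes above the level and 21.4% of all 35116 windows in the table. The interval treats windows as independent, though 1 gene can have several (3 for LOX, 7 for MCF2L), so it does not measure a spread over genes. The related letters GCGTG were in 45.2% of the windows of genes 2-fold higher and in 49.7% of those of all genes above the level, so they were not more frequent there. A match describes letters only, and no match says nothing of HIF binding. The windows of PFKFB4, EGLN3 and KDM3A held no ACGTG. Stretches of 80 bases from the 250 bases before the start are given for 8 genes with large differences or large read gains whose windows hold the letters, 5′ to 3′ in the direction of the gene, with ACGTG or its reverse complement CACGT in capitals; the 2 overlap in CACGTG.
CA9 (chr9:35673848-35673927, + strand): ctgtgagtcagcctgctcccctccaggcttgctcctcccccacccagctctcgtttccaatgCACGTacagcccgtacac
ALDOC (chr17:28576896-28576975, - strand): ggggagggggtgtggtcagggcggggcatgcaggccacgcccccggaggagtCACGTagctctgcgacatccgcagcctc
ANKRD37 (chr4:185396658-185396737, + strand): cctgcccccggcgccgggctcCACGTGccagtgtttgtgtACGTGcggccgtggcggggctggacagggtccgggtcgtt
LDHA (chr11:18394450-18394529, + strand): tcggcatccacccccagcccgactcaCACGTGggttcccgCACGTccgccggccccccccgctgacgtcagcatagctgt
P4HA1 (chr10:73096913-73096992, - strand): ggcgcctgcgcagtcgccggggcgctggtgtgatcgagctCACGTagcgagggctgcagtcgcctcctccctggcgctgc
BNIP3 (chr10:131982017-131982096, - strand): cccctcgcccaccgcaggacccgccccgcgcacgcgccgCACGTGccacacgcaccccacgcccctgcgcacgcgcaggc
DDIT4 (chr10:72273759-72273838, + strand): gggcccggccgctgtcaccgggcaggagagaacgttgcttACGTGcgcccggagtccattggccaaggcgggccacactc
PPFIA4 (chr1:203026333-203026412, + strand): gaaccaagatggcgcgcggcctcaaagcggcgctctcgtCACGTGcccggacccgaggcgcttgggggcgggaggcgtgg

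In CA9 the letters begin 18 bases before the start and in ALDOC 28 bases before it. LDHA holds 5 matches in the 250 bases before its start, of which 3 are in the stretch shown, and ANKRD37 holds 3, all in the stretch. The matches of DDIT4 and P4HA1, 1 each, begin 125 and 86 bases before the start. These genes differed by 0.97 (LDHA) to 3.30 (CA9), and the number of matches did not order them: CA9 holds 1.

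Within the HIF pathway itself, oxygen sensors and the main alpha subunit lay on opposite sides of 0 and most members lay near it. Of 18 members above the level, 2 were at least 1.5-fold higher (2.52% over all genes) and 1 was at least 1.5-fold lower (0.898% over all genes). The median was 0.03. EGLN3, a prolyl hydroxylase, was at 4.62 CPM at 20% O2 and 14.5 CPM at 1% O2 (1.60 [1.17, 2.14]), and EGLN1, the main oxygen sensor of the family, at 115 and 209.5 CPM (0.86 [0.76, 0.96]). EGLN2, the third member, was at 36.0 and 40.6 CPM (0.17 [-0.03, 0.38]) and is an uncertain row. HIF1A, which encodes the alpha subunit, was at 396 and 191 CPM (-1.05 [-1.13, -0.98]), and both 1% O2 libraries lay below the other 3. EPAS1, which encodes the other main alpha subunit, was at 53.5 and 50.9 CPM (-0.07 [-0.25, 0.10]). The partner ARNT was at 45.3 and 39.7 CPM (-0.19 [-0.38, 0.00]). VHL, the hydroxylase HIF1AN and the ligase parts CUL2 and RBX1 lay between -0.09 and 0.14. The other ligase parts TCEB1 and TCEB2 stood at -0.13 and -0.37, ARNT2 at -0.19, and the ligases SIAH1 and SIAH2, which act on the EGLN proteins, at 0.03 and -0.04. The coactivators EP300 (0.34 [0.23, 0.46]) and CREBBP (0.21 [0.09, 0.34]) and the inhibitor CITED2 (0.18 [0.05, 0.32]) were all slightly higher, and CITED2 stood at 2.15 on day 10. HIF3A had no reads on day 1.

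Glycolysis was higher through almost its whole length, but by unequal amounts. Of 24 genes of glucose entry, glycolysis and lactate export, 20 were above 0 and 9 at least 1.5-fold higher (2.52% over all genes), 4 at least 2-fold and 0 at least 1.5-fold lower, with a median of 0.55. Their summed level went from 16637 CPM at 20% O2 to 22617 CPM at 1% O2, a ratio of 1.36. At glucose entry, the transporter SLC2A3 was at 32.4 and 74.6 CPM (1.2 [1.02, 1.39]), the transporter SLC2A1 at 230.5 and 344 CPM (0.58 [0.50, 0.65]) and the hexokinase HK2 at 206 and 374 CPM (0.86 [0.79, 0.94]). HK1, the hexokinase of most tissues, differed by 0.40 [0.34, 0.47]. Sequence shared with SLC2A14 covers 35.5% of the words of SLC2A3.

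Isoforms of the same step stood apart from each other. Among the bifunctional enzymes that set fructose 2,6-bisphosphate, PFKFB4 differed by 1.76 [1.48, 2.07], PFKFB3 by 0.91 [0.78, 1.03] and PFKFB2 by -0.06 [-0.25, 0.13]. Among phosphofructokinases, PFKL was at 52.2 and 75.1 CPM (0.52 [0.37, 0.69]), PFKP differed by 0.12 [0.04, 0.20], and the muscle form PFKM was at 71.3 and 59.3 CPM (-0.27 [-0.42, -0.11]). ALDOA, the common aldolase, differed by 0.57 [0.53, 0.61] against 2.13 for ALDOC. The counting intervals of ALDOC and ALDOA do not meet, and neither do those of the PFKFB genes. In the lower steps PGK1, which makes ATP, was at 525 and 1079.7 CPM (1.04 [0.99, 1.09]), while TPI1 (0.38 [0.33, 0.42]), PGAM1 (0.58 [0.53, 0.62]), PKM (0.29 [0.27, 0.31]) and GAPDH (0.22 [0.20, 0.24]) were less far from 0. ENO2, the neuronal enolase, differed by 0.94 [0.80, 1.09] and ENO1 by 0.26 [0.24, 0.28].

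At the end of the pathway, LDHA, the subunit that favours lactate, went from 2142 to 4196 CPM (0.97 [0.95, 0.99]), while LDHB, the other subunit, went from 797 to 675 CPM (-0.24 [-0.29, -0.19]). SLC16A3, the lactate exporter of glycolytic cells, was at 150.1 and 245 CPM (0.70 [0.61, 0.80]), and its chaperone BSG at 405 and 401 CPM (-0.01 [-0.08, 0.05]). LDHA had the largest gain in reads of any gene, 2054 CPM, and 7 of the 10 largest gains were genes of this list or NDRG1 (LDHA, PKM, GAPDH, PGK1, NDRG1, ENO1 and ALDOA). The rest were AHNAK, HSP90AA1 and TFRC. CPM is not divided by transcript length, so this ranks reads and not molecules.

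**Figure D3:**
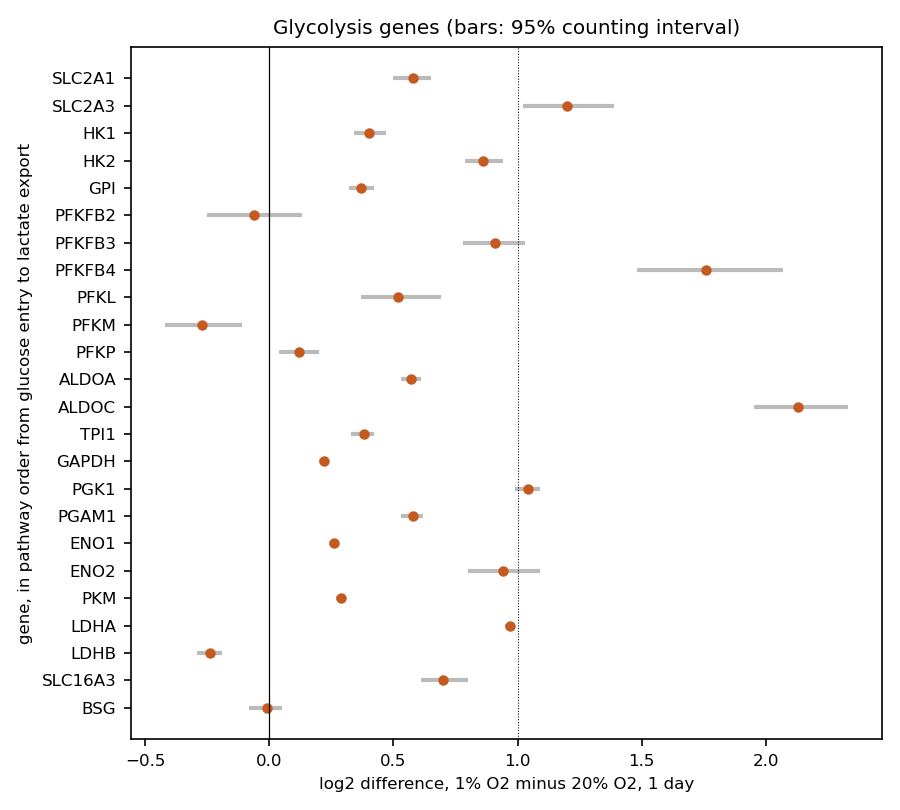
Log2 difference at day 1 of 24 genes of glucose entry, glycolysis and lactate export, in pathway order from top to bottom, with 95% counting intervals as bars and a dotted line at 2-fold. ALDOC (2.13) and PFKFB4 (1.76) lie farthest to the right and PFKM (-0.27) and LDHB (-0.24) to the left of 0.

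Of 5 kinases and phosphatases that set the activity of pyruvate dehydrogenase, 2 passed the 1.5-fold rule upward (2.52% over all genes), PDK1 and PDK3. The median of the 5 was 0.16. PDK1, a kinase that switches off pyruvate dehydrogenase, was at 26.1 and 54.9 CPM (1.07 [0.86, 1.29]) and PDK3 at 22.9 and 35.9 CPM (0.64 [0.41, 0.88]). The 7 genes of the complex and the pyruvate carrier had a median of -0.11, with 2 above 0 and 0 past that rule. In glycogen synthesis, 3 of 8 genes were at least 1.5-fold higher, where the share over all genes was 2.52%. They were GBE1, the branching enzyme (0.82 [0.72, 0.93]), PGM1, phosphoglucomutase (0.63 [0.52, 0.74]), and PPP1R3C, a targeting subunit that activates glycogen synthase (34 and 66 reads, 0.86 [0.28, 1.54]). None of 3 breakdown genes passed that rule. A second carbonic anhydrase of the surface, CA12, was at 22.9 and 36.4 CPM (0.66 [0.43, 0.91]), but reached 38.4 CPM after 10 days at 20% O2.

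BNIP3 and BNIP3L, receptors of mitophagy, were higher and well counted. BNIP3 was at 102 and 309 CPM (1.60 [1.5, 1.71]) and BNIP3L at 86.9 and 203 CPM (1.22 [1.11, 1.34]). BNIP3 had a smaller difference on day 10 (0.78) than on day 1, and BNIP3L a larger one (1.67). MXI1, a MYC antagonist, had 116 and 269 reads (1.14 [0.84, 1.48]), and FAM162A, a mitochondrial target of HIF, 248 and 435 (0.75 [0.53, 0.99]). AK4, a mitochondrial adenylate kinase, was at 115 and 239 CPM (1.05 [0.95, 1.15]). Of the 11 genes on the mitophagy list 4 passed the 1.5-fold rule, all upward (2.52% over all genes), and its median was 0.07. Of the 6 receptors and kinases on it, BNIP3 and BNIP3L passed that rule, and the median of the 6 was 0.03.

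Secreted and matrix genes gave the next group. Of 18 angiogenic and secreted factors, 4 were at least 1.5-fold higher and 0 lower, where the shares over all genes were 2.52% and 0.898%. VEGFA, the main vessel growth factor, was at 90.2 and 165 CPM (0.87 [0.75, 0.98]), and 444 CPM after 10 days at 1% O2. STC1, a secreted glycoprotein, was at 65.3 and 169 CPM (1.37 [1.24, 1.5]), and PDGFB had 39 and 76 reads (0.87 [0.33, 1.5]). Among 17 collagen-processing enzymes, 6 were at least 1.5-fold higher and 1 lower, beside the same shares over all genes. The 6 were 5 with DESeq2 size factors and 3 in the authors' TMM table as log2(value + 1). The prolyl hydroxylase P4HA1 was at 89.6 and 238 CPM (1.41 [1.30, 1.52]), the lysyl hydroxylase PLOD2 at 139 and 310.1 CPM (1.15 [1.06, 1.24]), and P4HA2 differed by 0.60 [0.42, 0.79]. LOXL4 differed by 0.59 [0.26, 0.94] and ERO1A, the disulphide oxidase of the endoplasmic reticulum, by 0.60 [0.52, 0.68]. P3H3, a prolyl 3-hydroxylase, had 54 and 34 reads (-0.69 [-1.39, -0.08]). The collagens, integrins and proteases themselves showed less: of 37 genes only the integrin ITGA2 passed the 1.5-fold rule (0.65 [0.57, 0.74]), although 32 were above 0 and the median was 0.21, and fibronectin FN1 differed by 0.58 [0.51, 0.65]. ITGA2 was higher still in the libraries of 10 days at 20% O2 (350.4 CPM) and reoxygenated cells (525 CPM) than on day 1 at 1% O2 (278 CPM).

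Some regulators of chromatin, growth and the clock were also higher, though most members of their lists did not pass the 1.5-fold rule. Among 21 demethylases that use 2-oxoglutarate and oxygen, 4 were at least 1.5-fold higher, where the share over all genes was 2.52%: KDM3A (39.5 and 92.2 CPM, 1.22 [1.06, 1.39]), KDM4B (0.66 [0.42, 0.91]), KDM4C (0.86 [0.40, 1.37]) and KDM7A (0.68 [0.32, 1.07]). None was lower by that rule. DDIT4, which restrains the growth kinase mTORC1, was at 36.8 and 112 CPM (1.60 [1.44, 1.77]), and the arrestin family members TXNIP, which limits glucose uptake (126 and 263 CPM, 1.06 [0.96, 1.15]), ARRDC3 (0.73 [0.47, 1.00]) and ARRDC4 (0.77 [0.46, 1.10]) went the same way. Of the 9 mTORC1 brakes listed, DDIT4 alone passed the 1.5-fold rule. Of 19 cyclins, CDK inhibitors and MYC network genes 3 passed it upward, with a list median of 0.05. CDKN1A, the cell cycle inhibitor p21, was at 63.3 and 113 CPM (0.84 [0.70, 0.98]), close to its 109 CPM after 10 days at 20% O2. MNT, a MYC antagonist, differed by 0.62 [0.32, 0.94]. In the clock list, 3 of 14 genes passed it upward, with a median of 0.27. BHLHE40, a repressor of clock genes, was at 28.0 and 78.7 CPM (1.48 [1.30, 1.69]), and NR1D1 differed by 0.60 [0.27, 0.95]. BHLHE40, TXNIP and CDKN1A differed by 0.83, 0.82 and 0.78 between 10 days and 1 day at 20% O2, a pair that shares the 20% O2 day 1 library with the values above.

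A list of further known HIF targets shares PFKFB3, VLDLR, INSIG2 and JMJD6 with other lists. It had the highest median of all the lists, 0.70 over 29 genes, with 18 at least 1.5-fold higher (2.52% over all genes) and 0 lower. The list was drawn up from known targets with earlier results of these data known, so its median is not independent of these values. Both 1% O2 libraries stood above the other 3 in 24 of the 29, where the share over all genes was 10.3% above (and 11.0% below); part of that follows from the day 1 difference. ANKZF1, a factor of ribosome quality control, was at 24.2 and 59.8 CPM (1.30 [1.10, 1.52]). TMEM45A, a membrane protein, was at 12.8 and 35 CPM (1.44 [1.16, 1.75]), with 35.7% of its words shared with ORC4. VLDLR, a lipoprotein receptor, was at 15.8 and 38.2 CPM (1.26 [1.01, 1.54]), PNRC1, a nuclear receptor coregulator, at 13.7 and 31.2 CPM (1.18 [0.90, 1.48]), and ANKRD37 had 32 and 78 reads (1.18 [0.62, 1.87]). PAM, which amidates peptides and needs oxygen, was at 134 and 248 CPM (0.88 [0.79, 0.98]). FUT11 (0.81), INSIG2 (0.89), KLHL24 (0.71), ZNF292 (0.70), IGFBP3 (0.69), the chemokine receptor CXCR4 (0.66) and CSRP2 (0.60) made up the remainder with NDRG1, SPAG4, AK4, PPFIA4 and PFKFB3.

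In sterol metabolism 2 of 5 regulators, INSIG1 and INSIG2, were at least 1.5-fold higher, where the share over all genes was 2.52%. Of the 5 regulators 3 were above 0, the median was 0.13 and the lowest stood at -0.51. INSIG2 was at 23.5 and 43.8 CPM (0.89 [0.67, 1.13]) and INSIG1, its relative that also retains the sterol sensor, at 133 and 215 CPM (0.69 [0.60, 0.79]). The 21 cholesterol enzymes had a median of 0.21, with 18 above 0 (48.9% over all genes) and 0 at least 1.5-fold higher. PMVK, phosphomevalonate kinase, was at 22.6 and 14.8 CPM (-0.60 [-0.91, -0.31]). G0S2, an inhibitor of fat breakdown, was at 58.8 and 94.6 CPM (0.68 [0.54, 0.83]), and 37.4 and 36.7 CPM on day 10. Among inflammatory genes the prostaglandin pathway split: PTGS2, cyclooxygenase, was at 14.4 and 38.1 CPM (1.40 [1.13, 1.69]) and PTGES, a prostaglandin E synthase, at 39.8 and 24.2 CPM (-0.71 [-0.95, -0.49]). In the reoxygenated library PTGS2 was at 91.9 CPM and PTGES at 181.8 CPM, each above both of its day 1 levels. TNFSF15, a cytokine, had 31 and 87 reads (1.38 [0.83, 2.07]) but 162 after 10 days at 20% O2. HMOX1, which breaks down heme, had 109 and 66 reads (-0.76 [-1.24, -0.33]), and the immediate early gene EGR1 221 and 148 (-0.63 [-0.94, -0.33]). MT1X, a metallothionein, had 123 and 193 (0.59 [0.26, 0.93]), and ISG20, an interferon-stimulated nuclease, 42 and 68 (0.62 [0.06, 1.23]).

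Large protein machines were shifted slightly and evenly downward without a member past the 1.5-fold rule. Of 76 respiratory chain genes 10 were above 0 (48.9% over all genes) and the median was -0.16; of 77 mitochondrial ribosomal protein genes 6 were above 0, with a median of -0.22. The 83 cytosolic ribosomal protein genes had 5 above 0 and a median of -0.15, and their sum went from 55615 to 49459.9 CPM. No proteasome gene of 31 was above 0 (median -0.21). DNA replication (40 genes, 5 above 0, median -0.23), led by POLE2 (-0.53 [-0.74, -0.32]) and ORC1 (-0.43 [-0.67, -0.21]), and ribosome biogenesis (32 genes, 3 above 0, median -0.18), led by BOP1 (-0.54 [-0.66, -0.41]), were alike. Mitosis genes (37 genes, 15 above 0, median -0.05) were shifted less. Their farthest members on either side were MKI67, a proliferation marker, at 744 and 980.4 CPM (0.40 [0.36, 0.44]), and CDC20 at 217 and 173 CPM (-0.33 [-0.42, -0.24]). Between 10 days and 1 day at 20% O2, a pair that shares the 20% O2 day 1 library, the medians of the respiratory chain, cytosolic ribosome and DNA replication lists were -0.16, -0.22 and -0.15, near the values above.

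Differences also varied with transcript length. Genes were split into 5 classes of near-equal number by their longest GENCODE transcript, a split added after the values were seen. The median difference went from -0.11 in the class of shortest transcripts (median 1697 bases) to 0.10 in that of the longest (median 7874 bases). The respiratory chain, mitochondrial ribosome and cytosolic ribosome lists have median lengths of 1432, 1727 and 1857 bases, while the HIF targets list has 4808. Among other lists, the median difference was -0.23 for DNA replication (3184 bases), -0.18 for ribosome biogenesis (3001 bases) and 0.55 for glycolysis (3297 bases). For DNA break and crosslink repair (4735 bases) it was -0.06. Over the same classes, the difference between 10 days and 1 day at 20% O2, which shares the 20% O2 library of day 1, went from -0.11 to 0.06. The part of length in the list medians was not tested. In reads, EEF1A1, the elongation factor, had the largest loss, a difference of -1399.5 CPM (16058 to 14658 CPM, -0.13 [-0.14, -0.12]), followed by the ribosomal RNA row RNA28S5, RPLP0, NPM1, EIF4A1, RPL4, TUBA1B, RPS2, HSP90AB1 and TUBB, all within -0.30 to -0.10.

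**Figure D4:**
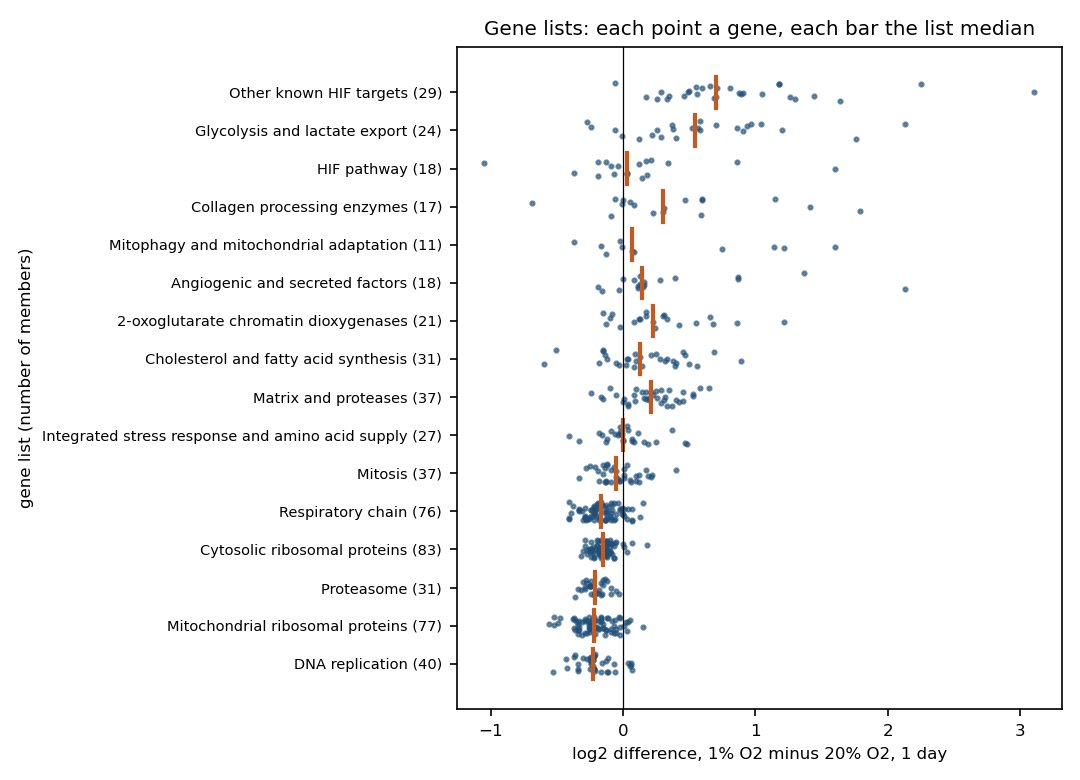
Log2 difference at day 1 of the members of 16 gene lists, 1 point a gene, with the list median as a bar and the number of members in brackets. The HIF targets (median 0.70) and glycolysis (0.55) spread to the right, while the respiratory chain, ribosome, proteasome and DNA replication lists lie in a narrow band with medians from -0.15 to -0.23.

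Genes that were at least 2-fold lower were few and mostly thinly counted or uncertain. HIF1A was by far the best counted of them, with 4110 and 2056 reads. FDXACB1, a synthetase-like protein, had 119 and 59 reads (-1.04 [-1.54, -0.61]), KIAA0408 59 and 28 (-1.08 [-1.83, -0.46]), STK31, a kinase of the germ line, 57 and 26 (-1.13 [-1.92, -0.50]) and VIPR1, a neuropeptide receptor, 62 and 31 (-1.01 [-1.73, -0.41]). H3F3A, a histone variant gene, had 54 reads at 20% O2 on day 1 and none in the other 4 libraries, and is therefore at least 18.7-fold lower against a floor of 3 counts in a library. A row listed at 0 in several libraries can be a failed estimate of the counting, which was not tested. NOMO3 had 175 and 52 reads with 94.9% of its words in NOMO1, and CSNK2A3 73 and 36 with 70% in CSNK2A1. The joined rows COMMD3-BMI1 (256 and 0 reads) and POC1B-GALNT4 (117 and 0 reads) share 98.6% and 95.9% of their words with BMI1 and GALNT4. GALNT4 lay on the other side of 0, with 116 and 253 reads (1.06 [0.75, 1.40]). The small RNA row RN7SL2 had 222 and 102 reads. BLOC1S5 (191 and 84 reads, -1.22 [-1.63, -0.86]) is paired with the joined row EEF1E1-BLOC1S5 (74 and 261 reads, 1.74 [1.39, 2.16]).

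Zinc finger genes, a family looked at after the values were seen, lay slightly high. Of 347 rows with a ZNF symbol, 26 (7.49%) were at least 1.5-fold higher and 2 lower, where the shares over all genes were 2.52% and 0.898%, and the median was 0.10. The 159 on chromosome 19, where many lie in tandem clusters of related sequence, had 18 higher, 1 lower and a median of 0.20, against 8 higher, 1 lower and a median of 0.06 for the 188 elsewhere. ZNF160 was at 12.2 and 31.1 CPM (1.33 [1.05, 1.65]), with 24.8 CPM after reoxygenation. ZNF28 was at 5.87 and 13.1 CPM (1.14 [0.72, 1.62]), but at 12.3 CPM after 10 days at 20% O2 and 13.4 CPM after reoxygenation, so here the 20% O2 library of day 1 is the one that stands apart.

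Several programmes linked to hypoxia stayed close to the median of all genes on day 1. The integrated stress response and amino acid list (27 genes) had a median near 0, and its largest members were GDF15 (0.48 [0.10, 0.87]) and CHAC1 (0.47 [0.04, 0.92]). The endoplasmic reticulum chaperones (22 genes, median 0.09), interferon-stimulated genes (24, median -0.04), splicing factors (30, median -0.04), autophagy and lysosome genes (25, median 0.02) and the BCL2 family (15, median 0.05) had at most 1 member past the 1.5-fold rule each. The mesenchymal and epithelial list (21 genes) had none, with TGFBI, a matrix protein, the farthest at 0.42 [0.28, 0.56].

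On day 10, in a pair that shares no library with day 1, far more of the same genes lay apart: 730 (6.69%) were at least 2-fold higher and 850 (7.79%) lower. Of the 65 genes 2-fold higher on day 1, 44 (67.7%) were also 2-fold higher on day 10, which is 6.03% of the 730. The median day 10 difference of the 65 was 1.73, and 37 of them were farther up on day 10 than on day 1. The 730 genes higher on day 10 had a median of 0.27 on day 1. LOX went from 1.79 to 3.92, EGLN3 from 1.60 to 3.86, SLC2A3 from 1.2 to 4.32 and TNFSF15 from 1.38 to 4.71, while CA9 (3.30 and 2.99), ALDOC (2.13 and 1.98) and PFKFB4 (1.76 and 1.81) had nearly the same difference on both days. PGK1 (1.04 and 0.63), PDK1 (1.07 and 0.38), AK4 (1.05 and 0.21) and GBE1 (0.82 and 0.22) were smaller on day 10. Glycolysis as a list had medians of 0.55 and 0.37, and DNA replication and mitosis, at -0.23 and -0.05 on day 1, stood at -1.02 and -1.18. The difference between the days was not tested.

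**Figure D5:**
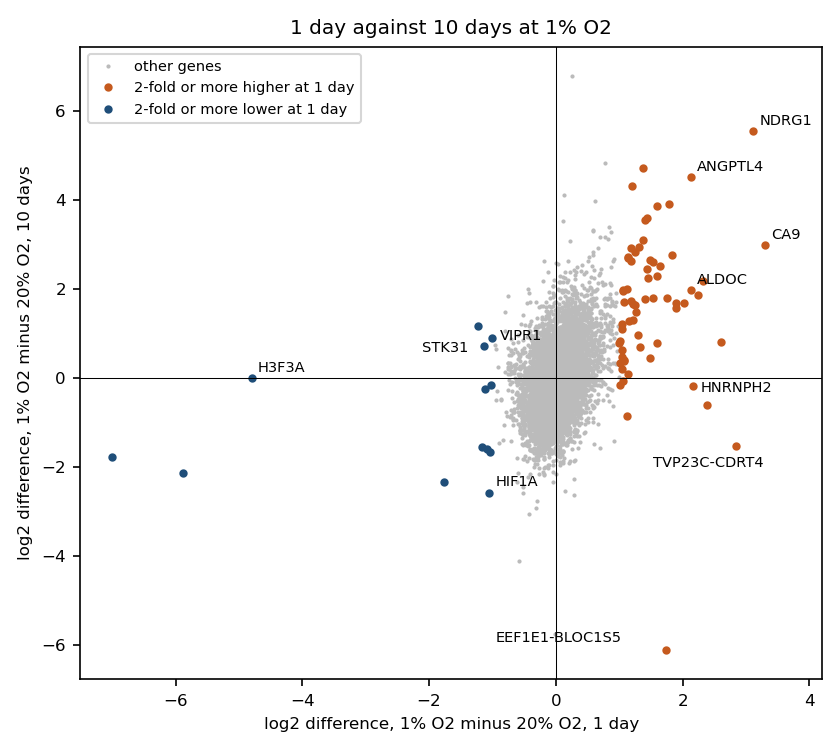
Log2 difference between 1% O2 and 20% O2 on day 10 (vertical) against that on day 1 (horizontal), 1 point a gene, with the 65 genes at least 2-fold higher on day 1 in orange and the 13 lower in blue. Of the 65, 58 lie above 0 on day 10, and the exceptions with the lowest values are joined rows such as EEF1E1-BLOC1S5 (-6.11, set by the prior count since it has no reads at 1% O2 on day 10).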

How the data were processed

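RNA of MDA-MB-231 cells was sequenced in 5 libraries, 1 a condition, made with a KAPA mRNA kit, per the labels' protocols. The submitters' processing notes name RSEM 1.2.15, Bowtie2 2.1.0, edgeR and the build hg38, and the sources used here give neither annotation nor strand setting. The authors deposited expected counts per gene symbol, estimated and not normalized, and a table of TMM-scaled values (a signal on a CPM scale). Of the values of this deposited signal, 99.9% or more in each library were whole multiples of 1 read, within 0.01 reads, and gave back the rounded expected counts. It set which genes entered (at least 5 in either day 1 library). A count test on recovered reads was not possible with 1 library a side.

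Expected counts were rounded. TMM factors (edgeR 4.0.16, R 4.3.3) were computed over the 13940 genes that reached 1 CPM in any library, and log2 CPM with a prior count of 2. Totals were 7719797 to 12544953 reads, so 1 read is 0.0816 to 0.126 CPM. Exact Clopper-Pearson 95% intervals (SciPy 1.17.1) of the count ratio cover counting error only. The scripts were tested on simulated data. Symbols of 28 rows are date-like.

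Members and gene lists were chosen with earlier results of these data known. Named genes were the 20 highest and 15 lowest past 2-fold whose interval excludes 0 (without uncharacterized, small RNA, antisense, joined and date-like symbols), list members past 1.5-fold with the 2 largest of each list, all HIF pathway and glycolysis members, the 10 largest gains and losses in CPM, and the 4 markers; 1 gene that the rule names is not reported here. Partners of uncertain rows, ZNF genes and transcript length were added after values were seen. Alternatives were other scalings (DESeq2 1.42.0 size factors, upper quartile, totals), the authors' table, prior counts, level filters, stricter intervals and leaving out uncertain rows. RefSeq tables (GRCh38.p14) gave coordinates and promoters; 8958 genes had a promoter window.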

Additional observations from a re-analysis of the deposited data

Results flagged for a closer look

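For 6 rows past 2-fold on day 1, the day 10 difference was at least 1.5-fold in the other direction with an interval that excludes 0. The difference between the days was not tested. Of rows not counted as uncertain, STK31 went from -1.13 on day 1 to 0.73 on day 10 (0.14 to 1.40), and VIPR1 from -1.01 to 0.91 (0.25 to 1.71). Both have 26 to 68 reads in every library. The other 4 are uncertain rows: BLOC1S5 went from -1.22 to 1.17, EEF1E1-BLOC1S5 from 1.74 to a fitted -6.11 that depends on the prior count because no read was left in the 1% O2 library of day 10, SPECC1L-ADORA2A from 1.13 to -0.85 and TVP23C-CDRT4 from 2.85 to -1.53.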

How the results depend on the processing

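The 65 genes at least 2-fold higher stayed between 47 and 65 under every scaling, the authors' table, a prior count of 0.5, a level of 10 CPM and without uncertain rows, an alternative chosen after seeing the data. They became 454 with no filter on level, 210 at 1 CPM, and 36 with an interval wholly past 2-fold. The 13 genes lower became 244, 70, 4 and 8 in these settings and at 10 CPM, 8 in the authors' table as log2(value + 1), and 6 without uncertain rows. The 275 genes 1.5-fold higher became 465 with no filter, 435 at 1 CPM, 180 at 10 CPM and 86 with an interval wholly past 1.5-fold, and the 98 lower became 187, 165, 55 and 10. The median of all genes was -0.019 with DESeq2 and -0.016 with upper-quartile scaling. The share of promoter windows with ACGTG over all genes was 22.9% in the 250 bases before the start alone, and 32.9% for the genes 2-fold higher. Of 117 list medians recomputed, 114 stayed within their interval; the 3 markers of other cell types, near 0, turned to -0.01 with DESeq2 scaling and -0.02 in the authors' table. Of 519 values of the 173 named genes, 512 stayed within their counting interval and 0 reversed.

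No paired analysis was possible because each condition has 1 library and no result comes from a test. Culture-to-culture variation could not be measured, so a difference of 1.5-fold in a gene of few reads cannot be set against it. The floor of 3 counts limits what can be said of genes near 0.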
